A study of Mus musculus with 18 samples.

Results

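The 10 genes studied here encode transcription factors that direct myeloid and erythroid fate, followed through early reprogramming of mouse blood cells: Spi1, Irf8, Gfi1, Gfi1b, Gata1, Klf1, Nfe2, Myb, Ikzf1 and Zfpm1. They were taken by symbol, out of 36655 symbols in the deposited expression table, in all 18 libraries. Spi1 stood there under its older symbol Sfpi1 and was matched by its Ensembl identifier. The mice were of strain C57BL/6 and derived wholly from iPS cells, and every cell, controls included, carried doxycycline-inducible Oct4, Sox2, Klf4 and c-Myc. The blood cells were myeloid progenitors (MP) and 2 kinds of haematopoietic stem cell, the short-term (ST-HSC) and the long-term (LT-HSC). Each gave libraries after 2 and 4 days of culture with doxycycline (D), after 2 and 4 days without it (N), and uncultured on day 0. Fibroblasts gave D libraries of days 2 and 4 and an uncultured library. In the 6 N libraries the field for doxycycline says yes, against the titles and the series design, and the titles were used. Each condition was 1 library, from 25 hand-picked cells for blood and from bulk RNA for fibroblasts, so p-values measure the spread between the cell types and days that stand in for replicates. The labels do not say how many mice were used or how the cells were sorted.

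Blood lineages are set by a small number of transcription factors that switch on their own programme and repress that of others. PU.1, the ETS-family protein made from Spi1, is needed for granulocytes, monocytes and B cells, while GATA1 is needed for red cells and megakaryocytes, and these proteins antagonise each other. Around this pair act cofactors and later regulators: IRF8 partners PU.1 in monocytes and dendritic cells, FOG-1 (from Zfpm1) is the cofactor of GATA1, and KLF1 drives the late red cell programme. GFI1 and GFI1B are closely related zinc finger repressors that recruit the same LSD1 complex, with GFI1 used in granulocytes and lymphocytes and GFI1B in red cells and megakaryocytes. NF-E2 p45 (from Nfe2) is required for platelet release, MYB keeps progenitors dividing, and IKAROS (from Ikzf1) is needed for lymphoid development.

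Values are FPKM, fragments scaled to transcript length and library size, as deposited; depth is unknown. A listed 0 may be a failed estimate. In blood libraries the FPKM summed to 677649 to 767866, and in fibroblast libraries to 524225 to 572069. The labelled cell types were checked against marker genes. Blood stem cell markers (7 genes) summed to 21 FPKM in uncultured MP, 699 FPKM in uncultured ST-HSC and 979 FPKM in uncultured LT-HSC. The library labelled uncultured LT-HSC stood apart from the other LT-HSC libraries: its 6 myeloid progenitor markers, granule genes such as Mpo and Elane among them, summed to 42212 FPKM. They summed to at most 185 FPKM in the cultured LT-HSC libraries, and to 59221 FPKM in uncultured MP and 1630 FPKM in uncultured ST-HSC. Calls against uncultured cells that rest on it are given below with and without the LT-HSC. Of the red cell markers, Hbb-b1 was listed at 0 and Rhag at 29.4 FPKM in uncultured MP. The 8 fibroblast markers summed to at most 33.4 FPKM in any blood library.

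Promoters are shown for Gfi1b, Irf8 and Gata1, as 1 repressor, 1 myeloid and 1 erythroid regulator with a motif match before the start. RefSeq (GRCm38.p6) held 11 windows of 300 bases for 8 of the 10 genes; Spi1 and Nfe2 had no entry. The lines below give the 250 bases before the start, 5′ to 3′ on the gene's own strand, with matches to searched motifs in capitals. These windows are Gfi1b chr2:28621983-28622232 (minus strand), Irf8 chr8:120736108-120736357 (plus strand) and Gata1 chrX:7967911-7968160 (minus strand).
Gfi1b: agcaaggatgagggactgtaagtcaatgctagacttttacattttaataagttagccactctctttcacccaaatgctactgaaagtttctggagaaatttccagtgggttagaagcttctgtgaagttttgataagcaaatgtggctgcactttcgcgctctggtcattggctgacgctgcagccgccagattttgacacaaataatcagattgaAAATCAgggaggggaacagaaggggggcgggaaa
Irf8: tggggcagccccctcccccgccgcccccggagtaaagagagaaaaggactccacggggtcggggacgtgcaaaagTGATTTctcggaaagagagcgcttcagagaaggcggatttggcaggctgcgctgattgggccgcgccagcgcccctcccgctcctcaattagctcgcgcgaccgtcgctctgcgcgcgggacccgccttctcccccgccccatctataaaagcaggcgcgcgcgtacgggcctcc
Gata1: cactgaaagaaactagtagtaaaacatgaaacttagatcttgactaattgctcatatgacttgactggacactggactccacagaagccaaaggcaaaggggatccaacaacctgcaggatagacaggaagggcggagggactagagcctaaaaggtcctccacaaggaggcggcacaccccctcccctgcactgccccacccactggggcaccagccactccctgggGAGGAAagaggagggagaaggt
The capitals mark a GFI motif (AAATCA) in Gfi1b that starts 34 bases before the transcription start, the same motif on the other strand (TGATTT) 175 bases before the start of Irf8, and a PU.1 motif (GAGGAA) 22 bases before the start of Gata1. Over both strands of the 11 windows the GFI letters occurred in 4, those of Gfi1b, Ikzf1 and both of Irf8, against 14% of all 32851 promoter windows. The PU.1 letters occurred in 1 of 11 (28.3% of all), the MYB letters AACGG in 2 (17.4% of all) and the IKAROS letters TGGGAA in 3 (25.6% of all). None held the GATA letters AGATAA (11.2% of all), the NF-E2 letters TGAGTCA, which are also an AP-1 motif (5.2% of all), or the KLF letters CCACACCC (3.56% of all). Only these spellings were searched, so other forms of each motif were not counted. A match is a description of the letters only.

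Before culture, MP held each of the 10 factors at 10 FPKM or more, and both stem cell libraries held 6. MP exceeded both stem cell libraries in 6 genes. Klf1, the red cell activator, stood at 141 FPKM in MP, against 3.56 FPKM in ST-HSC and 2.07 FPKM in LT-HSC. Gata1 showed the same order, with 91.6 FPKM in MP, 1.47 FPKM in ST-HSC and 1.37 FPKM in LT-HSC. Irf8 was at 122 FPKM in MP, 9.87 FPKM in ST-HSC and 7.4 FPKM in LT-HSC. Monocytic and erythroid regulators were thus both highest in the same uncultured MP library, which came from 25 cells and may hold several kinds of progenitor. Spi1 had another order, at 1099 FPKM in ST-HSC, 419 FPKM in MP and 452 FPKM in LT-HSC. Zfpm1, the GATA1 cofactor gene, was at 11.9 FPKM in MP, 16.9 FPKM in ST-HSC and 12.4 FPKM in LT-HSC. These are single libraries and were not tested on their own.

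**Figure D1:**
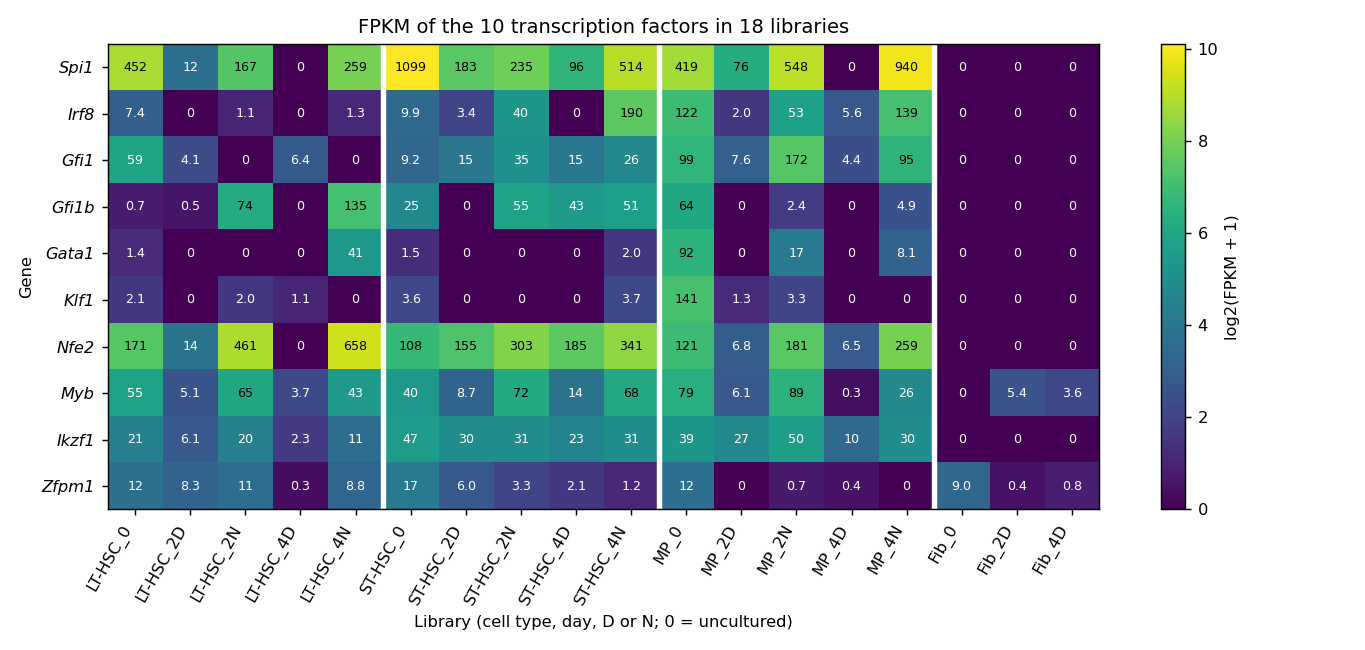
FPKM of the 10 genes (rows) in the 18 libraries (columns), with colour as log2(FPKM + 1) and the FPKM printed in each cell; within a cell type and day the D library stands left of the N library. Gata1 is at 0 in all 6 blood D libraries, and 8 of the 10 genes are at 0 in all 3 fibroblast libraries.

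The first comparison asked which factors differed between cells given doxycycline and cells cultured for the same time without it. Of the 9 factors tested, 5 were lower in D cultures and none was higher (Spi1, Irf8, Gfi1b, Nfe2 and Myb; limma, adjusted p under 0.05). Over all 12254 genes tested, 4.44% were lower and 4.53% higher. The count was 2 without the LT-HSC pair of day 2 or either MP pair, and 3 without the LT-HSC pair of day 4 or with 0.1 FPKM added before the log in place of 1. The median log2 difference, D minus N on log2(FPKM + 1), was -3.31 over the 9 members and 0.02 over all genes. Klf1 averaged 0.948 FPKM over these 12 libraries and was below the minimum of 1 FPKM for testing. In bulk samples such as these, fewer cells of a type and less RNA per cell cannot be told apart. Markers shared by all white blood cells, the cells studied here included, also summed lower in D, with little difference in the ST-HSC pair of day 2. These 6 markers summed to 6.07 to 2699 FPKM in D libraries and 2455 to 4607 FPKM in N libraries. Of them, 3 of 6 were called lower, with a median of -3.23. Ptprc, Vav1 and Cd48 were listed at 0 in both LT-HSC and MP D libraries of day 4. In the ST-HSC pair of day 2 the markers summed to 2699 FPKM in D and 2708 FPKM in N. In D and N of that pair Myb was at 8.67 and 71.6 FPKM, Irf8 at 3.37 and 40 FPKM, and Gfi1b at 0 and 54.9 FPKM. Spi1 was at 183 and 235 FPKM, and Nfe2 at 155 and 303 FPKM. The part these markers play in the results was not tested.

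Myb, the regulator of progenitor division, had the smallest p of the members in this comparison. Its level was 0.286, 5.6 and 13.7 FPKM (lowest, median and highest of 6) in D libraries, against 26.4, 66.4 and 89.2 FPKM in N libraries. Every D library lay below every N library, which held for 2.12% of all genes and, among the 10 members, for Myb alone. The fitted difference was -3.31 ± 0.32 (log2, SE; limma, 6 pairs, adjusted p = 0.000422), or 9.95-fold lower on the log2(FPKM + 1) scale. The pair differences ran between -4.41 and -2.24. In all 6 pairs, 6 members were lower in D (Spi1, Irf8, Gfi1b, Nfe2, Myb and Ikzf1), as were 6.68% of all genes.

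Among the myeloid regulators, Spi1 had the largest fitted fall. On day 2 it stood at 11.9 FPKM in LT-HSC D, 183 FPKM in ST-HSC D and 75.7 FPKM in MP D, against 167, 235 and 548 FPKM in the N cultures of LT-HSC, ST-HSC and MP. On day 4 it was listed at 0 in LT-HSC D and MP D and at 95.8 FPKM in ST-HSC D, against 259 FPKM in LT-HSC N, 940 FPKM in MP N and 514 FPKM in ST-HSC N. The D and N ranges overlapped only through the ST-HSC D library of day 2, and each D library was below its own N partner. The fitted difference was -4.54 ± 1.13 (limma, adjusted p = 0.0395). The adjusted p was 0.0894 and 0.0999 without the LT-HSC pair of day 2 and day 4, 0.0857 and 0.0744 without the MP pair of day 2 and day 4, 0.0951 with 0.1 FPKM added, 0.0598 with no filter and 0.0585 without trend and robust options. Irf8 was at 0, 1.02 and 5.61 FPKM (lowest, median, highest) in D libraries, against 1.1, 46.7 and 190 FPKM in N libraries. Its level was low in LT-HSC under both conditions, and the N libraries of ST-HSC and MP were the high ones. Irf8 differed by -3.60 ± 0.77 (limma, adjusted p = 0.0196; 0.068 without the MP pair of day 2, 0.0601 without that of day 4 and 0.0635 without pair terms).

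The erythroid and megakaryocytic regulators did not share one pattern. Nfe2 was at 13.8 FPKM on day 2 and 0 on day 4 in LT-HSC D, 155 and 185 FPKM in ST-HSC D, and 6.79 and 6.5 FPKM in MP D, against 461 and 658 FPKM in LT-HSC N, 303 and 341 FPKM in ST-HSC N, and 181 and 259 FPKM in MP N. Only ST-HSC D lay near the N values. The difference for Nfe2 was -4.31 ± 0.98 (limma, adjusted p = 0.0289; 0.0856 without the LT-HSC pair of day 2, 0.0897 and 0.0815 without the MP pair of day 2 and day 4, and 0.08 with 0.1 FPKM added). Gata1 was listed at 0 in all 6 D libraries, against 0, 5.04 and 40.6 FPKM (lowest, median, highest) in N libraries, with LT-HSC N of day 4 highest and 2 N libraries at 0. It did not pass the test (limma, -2.38 ± 0.75, adjusted p = 0.0803), and with a whole group at 0 this fitted value depends on the 1 FPKM added before the log. Klf1 was at most 1.28 FPKM in D libraries and 3.68 FPKM in N libraries, so both cultures lay far under the 141 FPKM of uncultured MP. Zfpm1 was at 0, 1.28 and 8.34 FPKM in D libraries, against 0, 2.24 and 11.3 FPKM in N libraries, and the groups overlapped nearly throughout (limma, -0.39 ± 0.53, adjusted p = 0.716; 0.12 without the LT-HSC pair of day 4).

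Ikzf1, the IKAROS gene, moved less than the myeloid pair. It stood at 2.26, 16.3 and 30.2 FPKM (lowest, median, highest) in D libraries, against 11.4, 30.3 and 49.8 FPKM in N libraries. All 6 pairs had the lower value in D, with pair differences of -1.93 to -0.02, and the fitted difference did not pass the test (limma, -1.06 ± 0.32, adjusted p = 0.0708). Without the ST-HSC pair of day 2 it passed (limma, adjusted p = 0.0477).

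**Figure D2:**
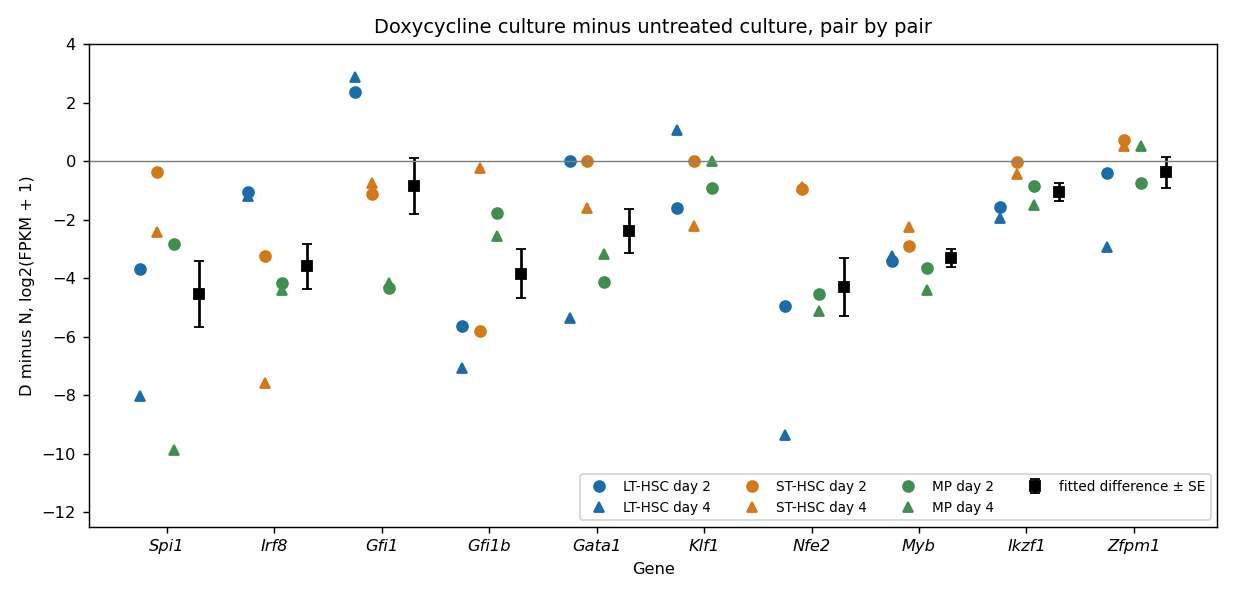
D minus N difference on log2(FPKM + 1) for each gene in each of the 6 pairs of cell type (colour) and day (symbol), with the limma estimate and its SE as black squares; Klf1 was not tested and has none. Myb pairs lie between -4.41 and -2.24, while Gfi1 pairs lie above 0 in LT-HSC and below 0 in ST-HSC and MP.

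The related repressors Gfi1 and Gfi1b took different courses by cell type. In LT-HSC, Gfi1 was at 4.14 FPKM on day 2 and 6.36 FPKM on day 4 in D, 0 on both days in N and 59.3 FPKM in the uncultured library whose granule markers stood high. In MP it was at 7.59 and 4.35 FPKM in D, 172 and 94.7 FPKM in N, and 99.4 FPKM uncultured. ST-HSC had 15.2 and 15.3 FPKM in D, 34.7 and 26.2 FPKM in N, and 9.21 FPKM uncultured; they lay between LT-HSC and MP in N, above both in D and below both uncultured. The sign of D minus N was thus positive in both LT-HSC pairs (2.36 and 2.88) and negative in the other 4, and the overall difference did not pass the test (limma, -0.85 ± 0.95, adjusted p = 0.646; 0.09 with 0.1 FPKM added). The MP difference minus that of the stem cells was -5.09 ± 1.21 (limma, adjusted p = 0.371).

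Gfi1b had the opposite order of cell types in N culture. LT-HSC held 0.507 FPKM on day 2 and 0 on day 4 in D, 73.8 and 135 FPKM in N, and 0.686 FPKM uncultured. MP held 0 on both days in D, 2.44 and 4.92 FPKM in N, and 63.9 FPKM uncultured. In ST-HSC it was at 0 and 42.7 FPKM in D, 54.9 and 51 FPKM in N, and 25.2 FPKM uncultured, so the ST-HSC D library of day 4 was the one D library with a level near its N partner. Gfi1b differed by -3.85 ± 0.84 between D and N (limma, adjusted p = 0.0217; 0.067 and 0.0571 without the LT-HSC pair of day 2 and day 4, and 0.0534 without the ST-HSC pair of day 2). In the N cultures, LT-HSC therefore listed Gfi1 at 0 beside Gfi1b at 73.8 and 135 FPKM, while MP had Gfi1 at 172 and 94.7 FPKM beside Gfi1b at 2.44 and 4.92 FPKM. Platelet markers summed to 211 and 474 FPKM in LT-HSC N, and mast cell and basophil markers to 905 and 970 FPKM in MP N; their part in this contrast was not tested. Across the 15 blood libraries the Pearson correlation of the pair was -0.134 on log2(FPKM + 1), over libraries that share cell types and method.

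**Figure D3:**
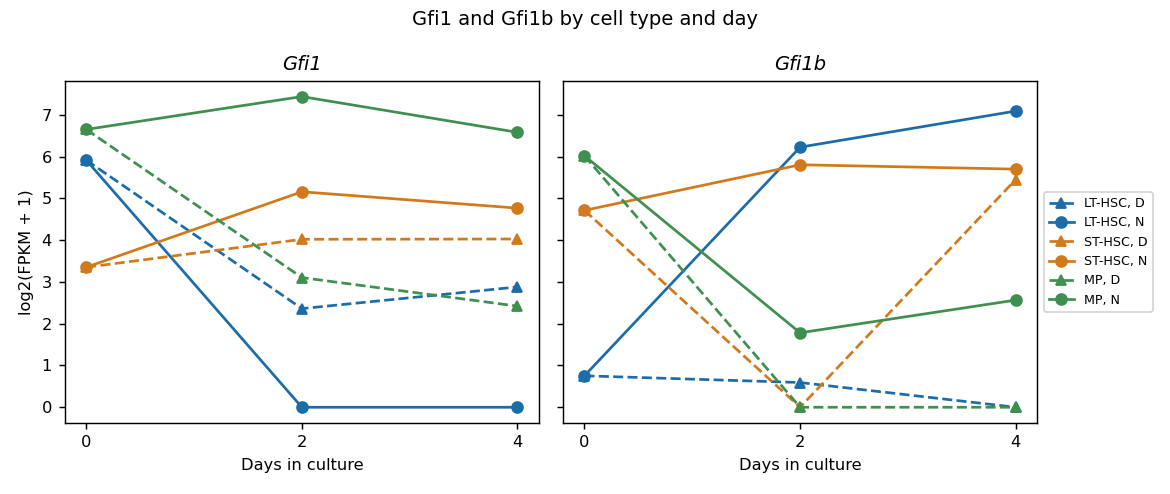
Gfi1 (left) and Gfi1b (right) on log2(FPKM + 1) by days in culture, with dashed lines for D, solid lines for N and colour for the cell type; day 0 is the shared uncultured library. In N culture LT-HSC have Gfi1 at 0 FPKM and Gfi1b at 73.8 and 135 FPKM, and MP have Gfi1 at 172 and 94.7 FPKM and Gfi1b at 2.44 and 4.92 FPKM.

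ST-HSC given doxycycline held higher levels of several factors than LT-HSC or MP given it. Spi1 (183 and 95.8 FPKM on days 2 and 4), Nfe2 (155 and 185 FPKM) and Ikzf1 (30.2 and 22.5 FPKM) were all higher in ST-HSC D than in the D libraries of LT-HSC and MP of the same day. So were Myb (8.67 and 13.7 FPKM) and Gfi1 (15.2 and 15.3 FPKM). Irf8 was not among them, at 3.37 and 0 FPKM in ST-HSC D against 40 and 190 FPKM in ST-HSC N. White blood cell markers were higher there too, summing to 2699 and 2176 FPKM in ST-HSC D, 282 and 27.6 FPKM in LT-HSC D and 233 and 6.07 FPKM in MP D; their part in the result was not tested. The D minus N difference in ST-HSC minus that in LT-HSC and MP was 5.08 ± 1.20 for Nfe2 (limma, adjusted p = 0.323) and 4.72 ± 1.82 for Spi1 (limma, adjusted p = 0.558). This comparison was added after the values were seen. It called 0 genes (0% of 12254 in limma; 1004 at an unadjusted p under 0.05, 2 of the 9 members among them).

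**Figure D4:**
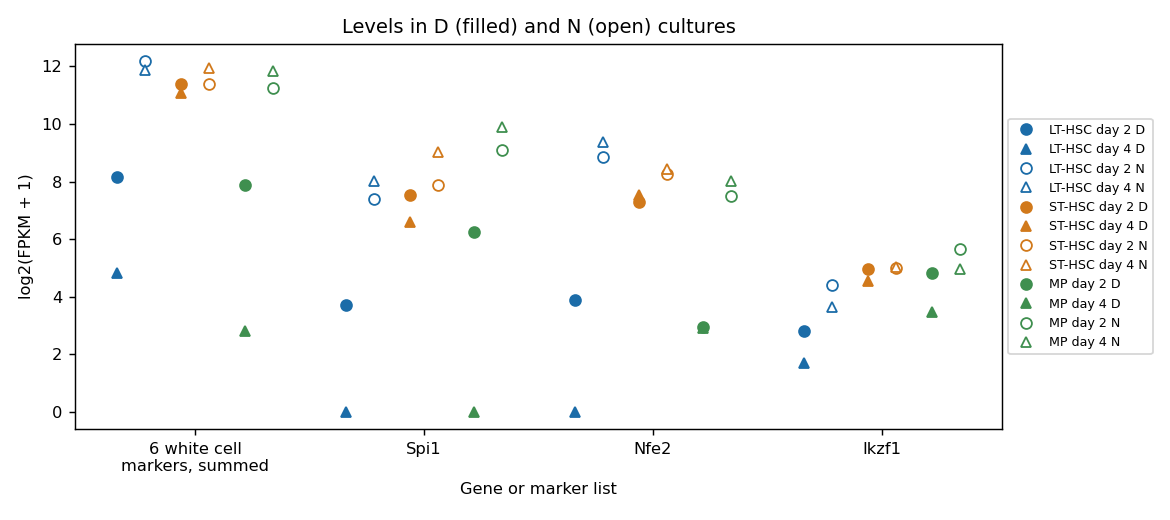
Levels on log2(FPKM + 1) of the summed white blood cell markers, Spi1, Nfe2 and Ikzf1 in D (filled) and N (open) cultures, by cell type (colour) and day (symbol). The ST-HSC D libraries, with marker sums of 2699 and 2176 FPKM, lie above the LT-HSC D and MP D libraries of the same day for the markers and all 3 genes; for Ikzf1 the MP D library of day 2, at 27.1 FPKM, lies above the ST-HSC D library of day 4, at 22.5 FPKM.

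Whether the effect of doxycycline changed between days or between cell types was also tested over all genes. Between days limma called 0% of 12254 genes (511 at an unadjusted p under 0.05), and between MP and stem cells 0% as well (1018 unadjusted). In each, 1 of 9 members passed the unadjusted level. Spi1 had a day 4 minus day 2 difference of -4.47 ± 1.79 (limma, adjusted p = 0.989), and Gfi1 is given above. With 1 library per condition these tests have few residual degrees of freedom.

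The N cultures were set against uncultured cells to see what culture alone did. Nfe2 was the one member that passed the test, and it rose, with 5.8% of 12060 genes called higher and 3.08% lower. N libraries of days 2 and 4 had 461 and 658 FPKM in LT-HSC, 303 and 341 FPKM in ST-HSC, and 181 and 259 FPKM in MP, against 171 FPKM in uncultured LT-HSC, 108 FPKM in uncultured ST-HSC and 121 FPKM in uncultured MP. All 6 N libraries exceeded all 3 uncultured ones, and the share of all genes that did so was not counted. The difference was 1.36 ± 0.26 (limma, adjusted p = 0.0166), beside a median of 0.17 over all genes; without the LT-HSC it was 1.20 (adjusted p = 0.101), and the adjusted p was 0.159 without the ST-HSC and 0.0636 without trend and robust options. Zfpm1 was at 0 to 11.3 FPKM in N libraries and 11.9 to 16.9 FPKM uncultured, and did not pass (limma, -2.05 ± 0.62, adjusted p = 0.0657). Klf1 did not pass either (limma, -2.66 ± 1.02, adjusted p = 0.126), and without the MP, whose uncultured library held 141 FPKM, its difference was -0.95. The fits for Gfi1 (limma, -1.32 ± 1.13, adjusted p = 0.483) and Gfi1b (limma, 1.03 ± 1.41, adjusted p = 0.669) average cell types that moved opposite ways, LT-HSC and ST-HSC for Gfi1 and LT-HSC and MP for Gfi1b. Without the LT-HSC they were 0.98 for Gfi1 and -1.40 for Gfi1b.

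D cultures were set against the same uncultured libraries, so this comparison shares samples with both others. Of 10 members 5 were lower and none higher, where 6.17% of 12539 genes were lower. They were Spi1 (limma, -5.20 ± 1.33, adjusted p = 0.0301), Irf8 (-3.41 ± 0.68, adjusted p = 0.0103), Klf1 (-3.28 ± 0.92, adjusted p = 0.0374), Myb (-3.30 ± 0.67, adjusted p = 0.0113) and Zfpm1 (-2.44 ± 0.71, adjusted p = 0.0431). Zfpm1 stood at 0 to 8.34 FPKM in D libraries and 11.9 to 16.9 FPKM uncultured. The remaining 5 genes did not pass in limma: Gata1 (-3.03 ± 0.93, adjusted p = 0.0507), Gfi1 (-2.17 ± 0.74, adjusted p = 0.0719), Ikzf1 (-1.40 ± 0.49, adjusted p = 0.0745), Nfe2 (-2.95 ± 1.10, adjusted p = 0.0973) and Gfi1b (-2.82 ± 1.21, adjusted p = 0.135). Without the ST-HSC, Gfi1 (-3.59, limma adjusted p = 0.00757) and Nfe2 (-4.74, limma adjusted p = 0.0295) passed, and 4 members were called, 2 of them among the first 5. Gata1 passed with 0.1 FPKM added (limma adjusted p = 0.0278) and under quantile normalization (limma adjusted p = 0.0393). All 10 differences were below 0, beside a median of 0.23 over all genes. Without the LT-HSC, whose uncultured library stood apart, none of the 10 was called (limma, 361 genes called) and the differences were -4.31 for Spi1, -3.58 for Irf8, -4.37 for Klf1, -3.26 for Myb and -2.68 for Zfpm1. Without the MP 2 were called, Spi1 and Myb, and Klf1 was at -1.64 (limma adjusted p = 0.22); its uncultured level was 3.56 FPKM in ST-HSC and 2.07 FPKM in LT-HSC. Of the first 5, 3 were called without the MP D library of day 2 or day 4 or the LT-HSC D library of day 4. Without the ST-HSC D library of day 4 Irf8, Myb and Gfi1b (-3.64, limma adjusted p = 0.0415) were called; the calls of Klf1 and Zfpm1 each ended under 11 of 17 alternatives.

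Cell types were compared over all conditions. MP differed from the stem cells in 0 of 10 members, with 0.297% of 12453 genes called (limma; 1688 genes and 3 members at an unadjusted p under 0.05). Irf8 was at 2.03 to 139 FPKM in the 5 MP libraries and 0 to 190 FPKM in the 10 stem cell libraries (limma, 2.45 ± 0.90, adjusted p = 0.265). Zfpm1 was at 0 to 11.9 FPKM in MP and 0.277 to 16.9 FPKM in stem cells (limma, -1.62 ± 0.51, adjusted p = 0.192). Gata1 reached 16.8 FPKM in cultured MP and 40.6 FPKM in cultured stem cells, and gave 1.82 ± 0.80 (limma, adjusted p = 0.348; 0.96 without the uncultured libraries). ST-HSC differed from LT-HSC in 0 of 10 members and 0% of 12419 genes (limma; 811 genes and 3 members unadjusted). The members with the smallest p were Ikzf1, Spi1 and Irf8. Ikzf1 was at 22.5 to 47.5 FPKM in ST-HSC and 2.26 to 20.6 FPKM in LT-HSC (limma, 1.63 ± 0.40, adjusted p = 0.464). The differences were 2.64 ± 0.82 for Spi1 (limma, adjusted p = 0.657) and 2.64 ± 0.92 for Irf8 (limma, adjusted p = 0.699).

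In fibroblasts, 8 of the 10 genes were listed at 0 in all 3 libraries. Myb was at 5.39 FPKM on day 2 and 3.58 FPKM on day 4 in D and 0 uncultured, within the 0.286 to 13.7 FPKM of blood D libraries. Zfpm1 was at 0.412 and 0.821 FPKM in D and 9 FPKM uncultured. Fibroblast markers summed to 568 and 1801 FPKM in the D fibroblasts and 10929 FPKM uncultured. These single libraries were made by another method than the blood libraries and were not tested.

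The genes around the 10 factors were then read from lists in D against N, so rose and fell here compare D with N. Some of these genes had also moved in N against uncultured cells, in fits that include the uncultured LT-HSC library with high granule markers. That comparison called 1072 of 12060 genes, and 145 of 11810 without the LT-HSC (limma). Over all 12254 genes tested in D against N, 4.44% were called lower and 4.53% higher, and 48.6% of differences were below 0. The lists were chosen with earlier results of these data known. Of 20 relatives tested in the same protein families, 2 rose and none fell, with a median of 0.18. With 4.44% of all genes called lower, a count of none in 20 is near that share. Nfe2l3, a relative of Nfe2, was at 59.8 and 17.8 FPKM on days 2 and 4 in LT-HSC D, 41.8 and 14.3 FPKM in ST-HSC D and 39.6 and 33.7 FPKM in MP D, and listed at 0 in all 6 N libraries. It rose by 5.0 ± 0.39 (limma, adjusted p = 0.000123), while Nfe2 itself fell, and it was also at 3.51 and 14 FPKM in D fibroblasts and 0 in uncultured ones. Klf3, a repressor of the Klf family, was higher in D than in N by 2.40 ± 0.51 (limma, adjusted p = 0.0189). Against uncultured cells Klf3 differed by -3.11 in N, which passed, and by -0.72 in D, which did not. Mybl2, a relative of Myb, was at 7.96 to 27 FPKM in D and 15.3 to 42.9 FPKM in N.

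Of 30 partners and cofactors tested, 3 fell and none rose, with a median of -0.18. Lyl1, a basic helix-loop-helix partner (-3.23), the fate regulator Runx1 (-1.65) and Cbfa2t3, the corepressor ETO2 (-2.60), fell with limma adjusted p of 0.0209, 0.033 and 0.0365. The LSD1 gene Kdm1a, which GFI1 and GFI1B recruit, was at 34.5 to 65.9 FPKM in D and 16.2 to 40.8 FPKM in N. Tal1, which works with GATA1, differed by -1.0 and did not pass (limma, adjusted p = 0.0738).

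Most genes listed downstream of PU.1 in myeloid cells were lower in D. Of 28 tested, 18 fell and none rose, beside 4.44% called lower over all genes. All 28 differences were below 0, with a median of -3.26, beside 48.6% below 0 over all genes. Those with the smallest p were the granule protease Prtn3 (-7.12 ± 0.71), the G-CSF receptor Csf3r (-3.42 ± 0.44), the signalling adaptor Tyrobp (-5.67 ± 0.85) and the LPS co-receptor Cd14 (-3.78 ± 0.57), with limma adjusted p of 0.000777, 0.00202, 0.00406 and 0.00412. This list shares Mpo, Elane, Prtn3, Ctsg and Fcgr3 with the myeloid progenitor markers, of which 6 of 6 fell, and Ptprc and Coro1a with the white blood cell markers. Of 10 monocyte and dendritic genes downstream of Irf8, 2 fell and 1 rose. The class II gene H2-Aa (-2.94) and the protease gene Ctsc (-1.63) fell, with limma adjusted p of 0.0304 and 0.0461. Id2, an inhibitor of helix-loop-helix factors, rose (2.21, limma adjusted p = 0.011). Against uncultured cells Ctsc differed by 1.77 in N, which passed, and by 0.14 in D, which did not.

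Red cell genes gave a different count. Of 30 listed downstream of Gata1 and Klf1, 13 could be tested, of which 2 fell and 1 rose, with a median of -0.27. The survival gene Bcl2l1 (-1.63, limma adjusted p = 0.00956) and the surface protein gene Icam4 (-2.83, limma adjusted p = 0.0284) fell. The cell cycle regulator E2f2 (1.82, limma adjusted p = 0.0417) rose. Against uncultured cells Bcl2l1 differed by 2.67 in N, which passed, and by 1.04 in D, which did not. Others were seen before culture but could not be tested in D against N. Car1 was at 366 FPKM and Rhd at 174 FPKM in uncultured MP. Both were listed at 0 in all 6 D and all 6 N libraries. Against uncultured cells Car1 differed by -4.14 in N and in D, and both passed. Rhd differed by -3.5 in N, which did not pass, and by -3.5 in D, which did. With 0 in every cultured library these directions were fixed. Of 12 megakaryocyte and platelet genes, 4 fell and none rose, with a median of -2.42: Plek (-4.17), Nbeal2 (-2.41), the integrin gene Itga2b (-4.40) and the thromboxane synthase gene Tbxas1 (-2.43), with limma adjusted p of 0.000661, 0.00278, 0.008 and 0.0485.

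Of 7 progenitor genes downstream of Myb, Cd34 fell (-4.37, limma adjusted p = 0.0221) and the other 6 did not pass, the growth factor receptor gene Kit among them (-0.82, limma adjusted p = 0.39). Myc, on this list, and Klf4, on the list downstream of Irf8, are also genes of the doxycycline-inducible factors. Their differences did not pass and cannot be separated from the induction itself. Lymphoid genes downstream of Ikzf1 moved both ways, with Satb1 (3.08, limma adjusted p = 0.00176) higher and Cd79b (-3.65, limma adjusted p = 0.00243) lower among 8 tested. Against uncultured cells Satb1 differed by -2.41 in N and 0.68 in D, and neither passed. Stem cell markers included 2 of 7 that rose, Ly6a (3.57) and Mecom (2.48), with limma adjusted p of 0.00251 and 0.00754, and none that fell. Against uncultured cells Ly6a differed by -2.43 in N, which passed, and by 1.13 in D, which did not. Mecom differed by -0.83 in N and 1.65 in D, and neither passed.

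**Figure D5:**
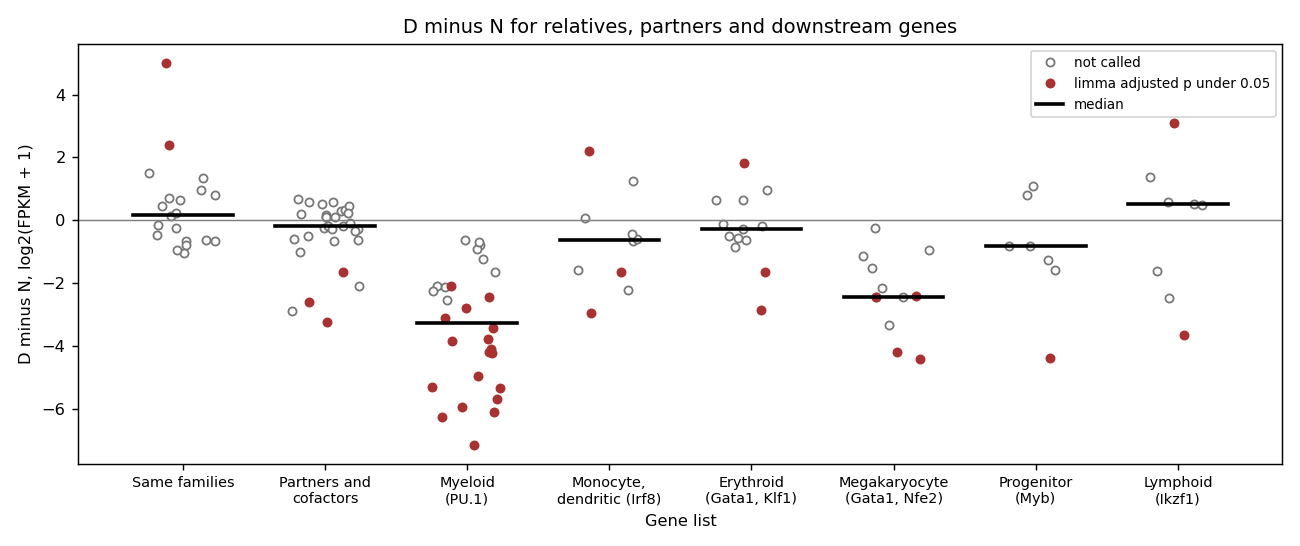
D minus N difference on log2(FPKM + 1) of each tested gene in 8 lists, with filled points for a limma adjusted p under 0.05, open points for the rest and bars for list medians. The myeloid list has 18 of 28 genes called lower with a median of -3.26, and the same-family list has 2 of 20 called higher with a median of 0.18. Over all genes tested, 4.44% were called lower and 4.53% higher.

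The 10 factors were last compared by likeness over the 15 blood libraries, which share cell types, days and amplification method, so the values describe these libraries. Spi1 had r of 0.849 with Myb, 0.841 with Ikzf1 and 0.835 with Nfe2 (Pearson, log2(FPKM + 1)). Irf8 was closest to Gfi1 among members (0.724), Gfi1b to Nfe2 (0.713), and Gata1 to Klf1 at 0.591. Over all genes, the 2 with the highest r were Vav1 and Psd4 for Spi1 (0.978 and 0.975), Itgal and BC035044 for Irf8 (0.916 and 0.912) and Osm and Gys1 for Gfi1 (0.895 and 0.892). Gfi1b was most like Anubl1 and Myl10 (0.897 and 0.891), Gata1 Steap3 and SNORA77.1 (0.813 and 0.81) and Klf1 Slc38a5 and Pklr (0.902 and 0.901). For Nfe2 these were Pik3cd and Slco4a1 (0.963 and 0.959), for Myb Ptpn7 and Glipr1 (0.946 and 0.939) and for Zfpm1 Tie1 and Gimap5 (0.911 and 0.905). Vav1, the signalling gene most like Spi1, is one of the white blood cell markers.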

How the data were processed

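RNA sequencing values of 18 libraries were used as deposited. The authors' deposited table holds 1 FPKM value for each gene in each library. The submitters' processing notes name TopHat, Cufflinks and build mm9 (versions and annotation not given in the sources used here), and the unit was read from the values and tools. Low values showed no steps of whole reads, so no counts or depth could be recovered and no counting interval is given. The 158 symbols on several entries were summed. Values were taken as log2(FPKM + 1), and genes with a mean of at least 1 FPKM over a fit's libraries were tested with limma 3.58.1 (R 4.3.3; moderated variances, trend and robust on; two-sided, Benjamini-Hochberg over all genes, threshold 0.05). D against N had a term for each of 6 pairs, leaving 5 residual degrees of freedom; culture comparisons had cell type as block and cell type comparisons had condition as block. The fits were tested on simulated data. Alternatives were the added value, the filter, scaling, the variance model, the pair terms and leaving out libraries. The 10 genes and the 18 lists (212 genes, of which 211 were in the table) were chosen with earlier results of these data known. Named were all 10 genes, up to 4 per list by smallest p in D against N with relatives and partners named in the account of a factor, and the 2 most alike (for Ikzf1 not reported here); Car1, Rhd, Kit and the genes of single marker values were chosen after their values were seen. Python 3.11.15, pandas 2.3.3 and matplotlib 3.10.9 made the remaining tables and the plots.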

Additional observations from a re-analysis of the deposited data

Results flagged for a closer look

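There were 8 differences that stood out because every library of one cell type moved one way and every library of another the opposite way under the same contrast, by a mean of at least 1 log2 unit in both. These differences between cell types were not tested. For Irf8, N minus uncultured was 3.02 in ST-HSC and -1.95 in LT-HSC, a gap of 4.97. Gfi1 showed 2 such gaps. Its D minus N mean was -4.25 in MP and 2.62 in LT-HSC, a gap of -6.87; the related contrast of MP with both stem cell types was tested above. Its N minus uncultured mean was 1.61 in ST-HSC and -5.91 in LT-HSC, a gap of 7.52. Gfi1b had an N minus uncultured mean of -3.85 in MP, against 5.9 in LT-HSC and 1.04 in ST-HSC, giving gaps of -9.75 and -4.88. For Myb, D minus uncultured was 2.44 in fibroblasts, where the uncultured library listed it at 0, against -3.38 in LT-HSC, -1.79 in ST-HSC and -4.73 in MP, giving gaps of 5.82, 4.23 and 7.16; fibroblast and blood libraries also differ in method. The LT-HSC values against uncultured cells, for Irf8, Gfi1, Gfi1b and Myb, rest on the uncultured LT-HSC library with high granule markers.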

How the results depend on the processing

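The fitted values given for single factors (34) were recomputed under 522 alternatives in all, of which 462 left the call as it was, 50 ended one, 6 made one and 4 turned the direction. Direction turned for Gfi1 in D minus N with 0.1 added in place of 1 (0.09). It also turned when a library pair or cell type was left out, where Zfpm1 in D minus N ranged from -0.61 to 0.12, and N minus uncultured ranged from -2.78 to 0.98 for Gfi1 and from -1.40 to 3.47 for Gfi1b. Of the members called in D minus N, 3 passed with 0.1 added, and 2 to 5 with 1 pair left out; Myb kept its call under all 15 alternatives. In N minus uncultured the count was 0 without trend and robust options and 0 to 1 with a library or cell type left out. In D minus uncultured it was 3 with no filter, 3 with a filter of 5 FPKM, 3 without trend and robust options and 0 to 5 on leaving out. Calls for Klf1 and Zfpm1 there each ended under 11 of 17 alternatives. The cause of these changes was not tested. Unknown depth limits what a listed 0 means, and single libraries of 25 amplified cells limit every value.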
